A study of Homo sapiens with 8 samples.

Results

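The comparison was between NCCIT cells depleted of TET2 (siTET2) and NCCIT cells depleted of TET1 (siTET1), read from the 2 arrays of each group, 4 of the 8 arrays of the series. NCCIT is a human embryonic carcinoma line, a pluripotent germ cell tumour line, and the study used it to ask how the TET enzymes divide their work. The cells were grown in McCoy's 5A medium with 10% fetal bovine serum and were transfected with a pool of small interfering RNAs (siRNAs) against TET1, TET2 or TET3, or with a non-targeting control (siNTC). Total RNA (250 ng) was labelled for Affymetrix Human Gene 1.0 ST arrays, 2 per group. Because both groups compared had received an siRNA against a TET, siNTC did not enter the contrast, and the siNTC and siTET3 arrays served only for the estimate of the spread and for levels given beside a result. The depletion was transient and partial, it was made in 1 cell line with 1 siRNA pool per target, and the labels do not say whether replicate arrays came from separate cultures, and the p-values therefore reflect spread from array to array, which may be technical.

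The TET proteins are dioxygenases that use oxygen, iron and 2-oxoglutarate to oxidise 5-methylcytosine in DNA to 5-hydroxymethylcytosine, a step on the way back to unmethylated cytosine. TET1 can reach CpG-rich DNA by itself through a zinc finger, and TET2 relies on partner proteins to bring it there. The same chemistry, with the same cosubstrates, is used by the prolyl hydroxylases that mark hypoxia-inducible factor (HIF) for degradation, by several histone demethylases and by the enzymes that hydroxylate collagen.

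Of 33297 transcript clusters, the probe groups of the array, 19460 carried exactly 1 gene symbol, and they gave 18417 genes after the cluster with the highest mean over all 8 arrays had been kept for each gene. Background was set at a log2 intensity of 5.21, a level that 95% of 341 olfactory receptor genes stayed below on average, and 12749 genes (69.2%) lay above it. Over all genes the siTET1 arrays correlated with each other at r = 0.9986, the siTET2 arrays at 0.9989, and arrays of the 2 groups with each other at 0.9976 to 0.9977. The number of arrays limits the precision. The label of embryonic carcinoma was compared with the markers on these arrays. SOX2 read 12.59 and 12.60 in siTET1 and 12.55 and 12.54 in siTET2, and of 25 measured pluripotency factors 22 lay above background. Markers of other cell types were fewer: 11 of 19 trophectoderm, 11 of 20 mesendoderm, 15 of 24 neuroectoderm and 3 of 6 fibroblast and stroma genes were above background. POU5F1 and NANOG were not analysed here.

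The targeted transcripts differed between the groups in the direction of their siRNAs. TET1 had a log2 intensity of 9.91 and 9.87 on the siTET1 arrays and of 10.28 and 10.27 on the siTET2 arrays. TET2 read 7.61 and 7.64 in siTET1 against 6.95 and 6.92 in siTET2. Neither transcript overlapped between the groups, and each was lower where its own siRNA had been used. The difference, siTET2 minus siTET1 on the log2 scale, was 0.39 ± 0.048 for TET1 (standard error of the fit, n = 2 arrays per group, adjusted p = 0.000577) and -0.69 ± 0.095 for TET2 (adjusted p = 0.00116). In array intensity siTET2 thus stood at 61.9% of siTET1 for TET2 and at 131% for TET1. These ratios are between 2 depleted groups and do not give the depth of either depletion against siNTC. A second, dimmer TET2 cluster read 7.08 and 7.18 in siTET1 and 6.59 and 6.96 in siTET2, and the mean of both clusters gave a smaller TET2 difference of -0.52 (adjusted p = 0.00334).

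The untargeted TETs bear on what the contrast holds besides the 2 targets. On the siNTC arrays TET1 read 10.62 and 10.53, above all siTET1 and siTET2 arrays, whereas TET2 read 7.71 and 7.91, close to siTET1. TET3, which no siRNA of this contrast targeted, had 7.25 and 7.12 in siTET1 and 7.60 and 7.50 in siTET2. The groups did not overlap, but the TET3 difference of 0.36 ± 0.15 was not past the test (adjusted p = 0.191). The other arrays that enter the estimate of the spread read 6.23 and 6.66 in siTET3 and 7.74 and 7.30 in siNTC. In a fit of the 4 siTET1 and siTET2 arrays alone the same difference had an adjusted p of 0.006.

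**Figure D1:**
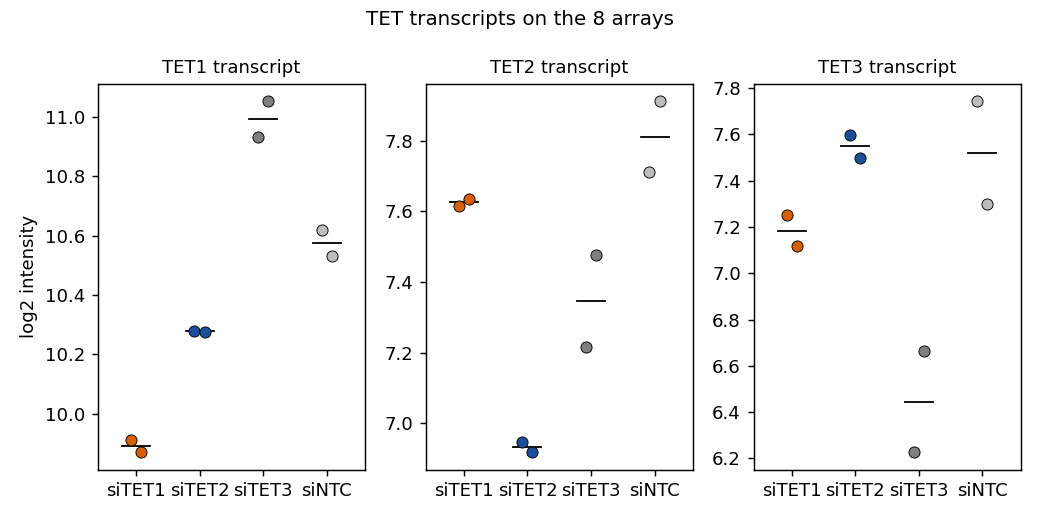
Log2 intensity of the TET1, TET2 and TET3 transcripts (y axes, each with its own range) on the 2 arrays of each of the 4 groups; points are arrays and the lines are group means. TET1 was at 9.87 to 9.91 in siTET1 and at 10.27 to 10.28 in siTET2, whereas TET2 was at 7.61 to 7.64 in siTET1 and at 6.92 to 6.95 in siTET2.

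Across the transcriptome 1189 of 18417 genes (6.46%) differed at an adjusted p under 0.05, 429 of them higher in siTET2 (2.33%) and 760 lower (4.13%). The lower genes changed less. With at least a 1.5-fold difference 52 were higher and 15 lower (67 genes, 0.364% of all tested), and the 14 genes past 2-fold were all higher in siTET2. Because RNA came from whole cultures, a lower level in fewer cells and less RNA per cell cannot be told apart. The median absolute difference of the called genes was 0.26 on the log2 scale, and the median difference over all genes was -0.016. When the genes were divided by mean expression into 3 groups of 6139, the lower genes were concentrated in the most highly expressed group, with 596 lower and 285 higher, against 158 lower and 128 higher in the middle group and 6 lower and 16 higher in the dimmest. The balance between the directions rested on small differences, since after centring each array on its median 578 genes were higher and 490 lower (45.9% lower, against 63.9% in the values as deposited). The count was smaller with any 1 of the 4 siTET1 and siTET2 arrays left out. Such a fit keeps 1 array in a group, and the test has less power whichever array is dropped. Of the 125 genes named here as past the test, 71 were past it with any of these 4 arrays left out, FOS, EGR1, LOX, BHLHE40, STC1, PFKFB3, VTRNA1-1, OTX2, TET1 and TET2 among them.

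**Figure D2:**
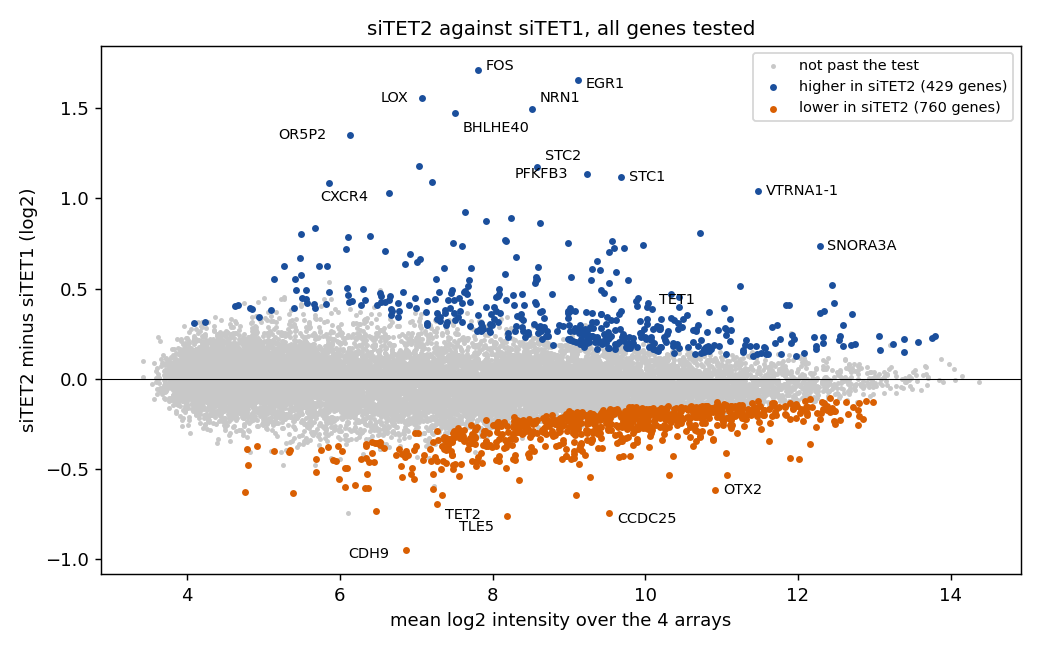
Difference between siTET2 and siTET1 (y axis, log2) against the mean log2 intensity over the 4 arrays (x axis), 1 point per gene, with the 429 genes past the test and higher in siTET2 in blue, the 760 lower in orange and the rest in grey. The differences past 2-fold were all above 0, and the genes lower in siTET2 lay mostly at high intensities and small differences.

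The 14 genes past 2-fold belonged to different lists or to none. They were led by FOS and EGR1, transcription factors of the immediate early response, by LOX, which cross-links collagen and elastin, by NRN1, a neuronal growth protein held to the cell surface by a lipid anchor, and by BHLHE40, a transcriptional repressor of the clock and hypoxia responses. NRN1 read 7.82 and 7.71 in siTET1 and 9.29 and 9.24 in siTET2, a 2.82-fold difference (log2 1.498 ± 0.076, adjusted p = 2.82e-07). PTPRB, a receptor tyrosine phosphatase of endothelium, was 2.27-fold higher (1.18 ± 0.085, adjusted p = 6.95e-06), DNAH11, a dynein heavy chain of motile cilia, 2.12-fold higher (1.09 ± 0.100, adjusted p = 4.69e-05), and CXCR4, the receptor of the chemokine CXCL12, was 2.04-fold higher (1.03 ± 0.11, adjusted p = 0.000185). For NRN1 the siNTC arrays, at 5.60 and 5.75, lay below every siTET1 and siTET2 array, while for CXCR4 they lay at 6.26 and 6.02, on either side of the siTET1 arrays at 6.03 and 6.21. The others past 2-fold were STC2, PFKFB3, STC1, BHLHE41 and VTRNA1-1, described with their lists, and the olfactory receptor OR5P2 (1.35 ± 0.11, adjusted p = 1.57e-05).

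In a list of 36 measured transcripts induced by low oxygen, glycolysis genes left out, 63.9% were past the test, against 6.46% of all genes. The list was drawn up with earlier results of these data known, so its shares are a description and no test. In well-oxygenated cells the prolyl hydroxylases EGLN1, EGLN2 and EGLN3 hydroxylate HIF-1α and HIF-2α, which are then degraded, whereas in hypoxia HIF accumulates, pairs with ARNT and binds sites that often contain the letters ACGTG. Of 36 measured hypoxia targets outside glycolysis 23 were past the test, all higher in siTET2, and 13 were not, against 2.33% of all genes called higher and 4.13% called lower. By limma, 30 of the 36 were higher and 0 lower at an unadjusted p under 0.05. The median difference of the 36 genes was 0.46, against -0.016 for all genes, and 35 of them had a positive difference. In 27 of the 36 both siTET2 arrays lay above the other 6 arrays of the series, which was so for 5.49% of all genes. The list's median log2 intensity was 7.63 on each siTET1 array, 8.28 and 8.34 on the siTET2 arrays, 7.69 and 7.80 in siTET3, and 7.20 and 7.15 in siNTC. With 1 of the 4 siTET1 and siTET2 arrays left out, 18 to 20 members were past the test.

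The upstream regions of LOX, BHLHE40 and DDIT4 from this list, and of EGLN1 from the list of oxygen-sensing genes, are shown because they carry these letters of the HIF site. Each sequence is the RefSeq stretch of 250 bases before the start site of the gene in GRCh38.p14, written 5′ to 3′ on the strand of the gene, with ACGTG, or its reverse complement CACGT, in capitals. LOX lies on the minus strand of chromosome 5 (chr5:122078260-122078509), BHLHE40 on the plus strand of chromosome 3 (chr3:4979187-4979436), DDIT4 on the plus strand of chromosome 10 (chr10:72273674-72273923) and EGLN1 on the minus strand of chromosome 1 (chr1:231422288-231422537).
LOX: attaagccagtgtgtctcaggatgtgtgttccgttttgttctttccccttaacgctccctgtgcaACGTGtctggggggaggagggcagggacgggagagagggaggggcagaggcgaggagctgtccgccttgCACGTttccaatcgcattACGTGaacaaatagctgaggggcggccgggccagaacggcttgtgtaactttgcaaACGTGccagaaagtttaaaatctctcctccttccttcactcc
BHLHE40: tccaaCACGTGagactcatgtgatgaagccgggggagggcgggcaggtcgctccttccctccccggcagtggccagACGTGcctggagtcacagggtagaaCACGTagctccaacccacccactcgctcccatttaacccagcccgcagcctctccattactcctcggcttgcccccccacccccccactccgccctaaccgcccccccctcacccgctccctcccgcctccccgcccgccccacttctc
DDIT4: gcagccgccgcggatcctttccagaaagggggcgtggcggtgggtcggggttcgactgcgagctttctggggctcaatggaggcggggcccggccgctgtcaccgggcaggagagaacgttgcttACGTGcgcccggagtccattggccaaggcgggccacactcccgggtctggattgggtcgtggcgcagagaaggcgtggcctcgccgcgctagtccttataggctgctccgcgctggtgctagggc
EGLN1: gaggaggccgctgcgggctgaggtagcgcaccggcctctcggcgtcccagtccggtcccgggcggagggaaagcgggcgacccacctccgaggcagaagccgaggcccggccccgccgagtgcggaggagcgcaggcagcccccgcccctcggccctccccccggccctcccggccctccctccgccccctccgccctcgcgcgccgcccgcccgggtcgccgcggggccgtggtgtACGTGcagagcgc

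The letters were found 4 times before LOX, at positions -185, -116, -98 and -42, 4 times before BHLHE40, where 2 of the matches are the strands of 1 palindromic CACGTG, and once each before DDIT4 and EGLN1. Searched on both strands over 250 bases before and 50 bases after the start site, ACGTG was present in 10 of 20 promoters of the hypoxia targets past the test that had a RefSeq window and in 14 of 29 promoters of all those measured. The share was 21.6% over all 27305 RefSeq promoters given, and 3420 of the 14239 promoters of tested genes held the letters. Among genes higher in siTET2 the share was 31.7% (86 of 271) and among genes lower in siTET2 28.9% (189 of 655). The letters were also in 4 of 9 promoters of immediate early genes past the test and in 8 of 22 of those measured. For the glycolysis genes described below these counts were 4 of 13 and 12 of 30. A match of 5 letters is a description of the sequence. STC2, PFKFB3, PFKFB4, ADM and KDM3A had no ACGTG in this window, and no other form of the HIF site was searched for.

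Of the genes that sense oxygen, EGLN1 alone of 13 measured was past the test. EGLN1, the main HIF prolyl hydroxylase and itself a HIF target, read 8.33 and 8.24 in siTET1 and 8.90 and 8.92 in siTET2 (0.62 ± 0.069, adjusted p = 0.000225). The transcript of HIF1A read 11.99 and 12.06 against 11.95 and 11.94 (-0.08 ± 0.045, adjusted p = 0.411), ARNT differed by -0.007 ± 0.039 (adjusted p = 0.971), and EPAS1, which encodes HIF-2α, by 0.08 ± 0.096 (adjusted p = 0.790). The 95% confidence intervals of the 3 differences ran from -0.17 to 0.02, from -0.09 to 0.08 and from -0.13 to 0.28. HIF is set mainly by protein stability, which these arrays did not measure.

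Transcriptional repressors and chromatin enzymes were among the hypoxia targets with the largest differences. BHLHE40 read 6.78 and 6.77 in siTET1 and 8.17 and 8.32 in siTET2, a 2.78-fold difference (1.47 ± 0.093, adjusted p = 2.06e-06). Its paralogue BHLHE41, which binds the same E-box sites, read 6.68 and 6.64 against 7.75 and 7.75, a 2.13-fold difference (1.09 ± 0.083, adjusted p = 9.61e-06). KDM3A, a demethylase of histone H3 lysine 9 that shares the TET cosubstrates, was 1.68-fold higher (0.74 ± 0.054, adjusted p = 6.95e-06), and RORA, an orphan nuclear receptor of the clock, 1.64-fold (0.71 ± 0.091, adjusted p = 0.000675). In BHLHE40 and BHLHE41 the 4 groups took the same order on every array, siNTC lowest, then siTET1, siTET3 and siTET2.

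Secreted factors were also among the hypoxia targets past the test. STC1 and STC2 encode stanniocalcins, glycoprotein hormones with roles in calcium and phosphate handling. STC2 read 7.98 and 8.02 in siTET1 and 9.18 and 9.17 in siTET2 (2.26-fold, 1.17 ± 0.072, adjusted p = 1.59e-06), and STC1 read 9.08 and 9.18 against 10.21 and 10.29 (2.18-fold, 1.12 ± 0.058, adjusted p = 2.82e-07). VEGFA, the main growth factor of blood vessels, read 7.44 and 7.52 against 8.37 and 8.34 (1.84-fold, 0.88 ± 0.070, adjusted p = 1.57e-05). The vasodilator peptide ADM was 1.65-fold higher in siTET2 (0.73 ± 0.050, adjusted p = 4.78e-06), but its siNTC arrays, at 10.53 and 10.46, lay above the siTET2 arrays at 9.95 and 9.95. STC2 also differed from the hypoxia genes that were lowest in siNTC, since its siNTC values of 8.26 and 8.03 lay above the siTET1 arrays.

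Several of the hypoxia targets encode enzymes that modify collagen. LOX read 6.23 and 6.38 in siTET1 and 7.78 and 7.94 in siTET2, the largest difference among the hypoxia genes at 2.94-fold (1.56 ± 0.095, adjusted p = 1.59e-06). The lysyl hydroxylase PLOD2 was 1.70-fold higher (0.76 ± 0.058, adjusted p = 9.93e-06), whereas its relatives PLOD1 (-0.07 ± 0.046, adjusted p = 0.500) and PLOD3 (0.11 ± 0.063, adjusted p = 0.396) were not past the test, and the catalytic subunits of collagen prolyl 4-hydroxylase, P4HA1 and P4HA2, were 1.53-fold (0.61 ± 0.063, adjusted p = 0.000130) and 1.38-fold higher (0.47 ± 0.082, adjusted p = 0.00523). PLOD2, P4HA1, P4HA2 and KDM3A belong, with EGLN1 and P3H2 (a collagen prolyl 3-hydroxylase, 0.57 ± 0.077, adjusted p = 0.00103), to the 2-oxoglutarate dioxygenases, the enzyme class of the TETs. Of 49 measured members of that class outside the TETs 8 were higher, 2 were lower and 39 were not past the test (median 0.009). That is 20.4% called, against 6.46% of all genes. The histone demethylases KDM6A (0.28) and KDM6B (0.27) were among those higher, and RIOX2 (-0.45) and JMJD4 (-0.33) were the 2 that were lower.

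The remaining hypoxia targets have varied roles. DDIT4, an inhibitor of the growth kinase complex mTORC1, read 8.18 and 8.20 in siTET1 and 9.01 and 9.11 in siTET2 (1.82-fold, 0.86 ± 0.081, adjusted p = 5.35e-05). BNIP3 and BNIP3L, receptors that send mitochondria to autophagy, were 1.44-fold (0.52 ± 0.038, adjusted p = 6.95e-06) and 1.26-fold higher (0.33 ± 0.042, adjusted p = 0.000638). INSIG2, which holds back the processing of the sterol regulator SREBP, was 1.70-fold higher (0.76 ± 0.085, adjusted p = 0.000244). TMEM45A was not above background on the siTET1 arrays and was at least 1.60-fold higher in siTET2 (adjusted p = 0.000947). The 13 members not past the test included ANKRD37 (0.33 ± 0.10, adjusted p = 0.0726), PPFIA4 (0.54 ± 0.15, adjusted p = 0.0543), EGLN3 (0.19 ± 0.079, adjusted p = 0.205) and NDRG1 (0.11 ± 0.086, adjusted p = 0.589). PLOD1 was the single member with a negative difference. The separate list of 31 genes of the unfolded protein response and heat shock had 0 higher and 3 lower by limma (0 and 10 at an unadjusted p under 0.05), with a median of -0.06 and 24 negative differences. The 3 were the chaperones HSPA5 (-0.19 ± 0.053, adjusted p = 0.0479) and HSP90AA1 (-0.17 ± 0.037, adjusted p = 0.0168) and the disulfide isomerase PDIA4 (-0.21 ± 0.049, adjusted p = 0.0216). The share called in this list was 9.68%, against 6.46% of all genes. Its median intensity was high, 9.70 on each siTET1 array, and in the most highly expressed group 596 of 6139 genes were lower.

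Glycolysis genes differed in both directions, most of those past the test being higher. Of 32 genes 12 were higher, 2 were lower and 18 were not past the test (median 0.12). That is 43.75% called, against 6.46% of all genes. PFKFB3 and PFKFB4 make fructose 2,6-bisphosphate, the activator of phosphofructokinase. PFKFB3 read 8.69 and 8.66 in siTET1 and 9.83 and 9.79 in siTET2 (2.20-fold, 1.13 ± 0.053, adjusted p = 1.29e-07), and PFKFB4 read 7.09 and 7.25 against 8.15 and 8.04 (1.90-fold, 0.92 ± 0.094, adjusted p = 0.000118). Next came PDK1, a kinase that switches off pyruvate dehydrogenase (1.65-fold, 0.72 ± 0.054, adjusted p = 8.46e-06), and the first enzyme of the pathway, hexokinase HK2 (1.52-fold, 0.61 ± 0.061, adjusted p = 0.000112).

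The glucose transporter SLC2A1 was 1.33-fold (0.41 ± 0.035, adjusted p = 2.33e-05) and lactate dehydrogenase LDHA 1.29-fold higher (0.37 ± 0.030, adjusted p = 1.85e-05), while PGK1 differed by 0.15 ± 0.032 (adjusted p = 0.0154), ALDOA by 0.12 ± 0.052 (adjusted p = 0.209) and ENO1 by 0.03 ± 0.028 (adjusted p = 0.681). For LDHA the siTET1 arrays stood apart, at 12.09 and 12.13, from the siTET2, siTET3 and siNTC arrays at 12.47 to 12.51. The 2 genes lower in siTET2 were PDK2, another pyruvate dehydrogenase kinase (66.4% of siTET1, -0.59 ± 0.10, adjusted p = 0.00568), and PDHA1, the catalytic subunit of pyruvate dehydrogenase itself (86.3%, -0.21 ± 0.048, adjusted p = 0.0203). Without siTET1 replicate 1, siTET1 replicate 2, siTET2 replicate 1 or siTET2 replicate 2, the glycolysis genes past the test numbered 7, 9, 6 and 7.

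**Figure D3:**
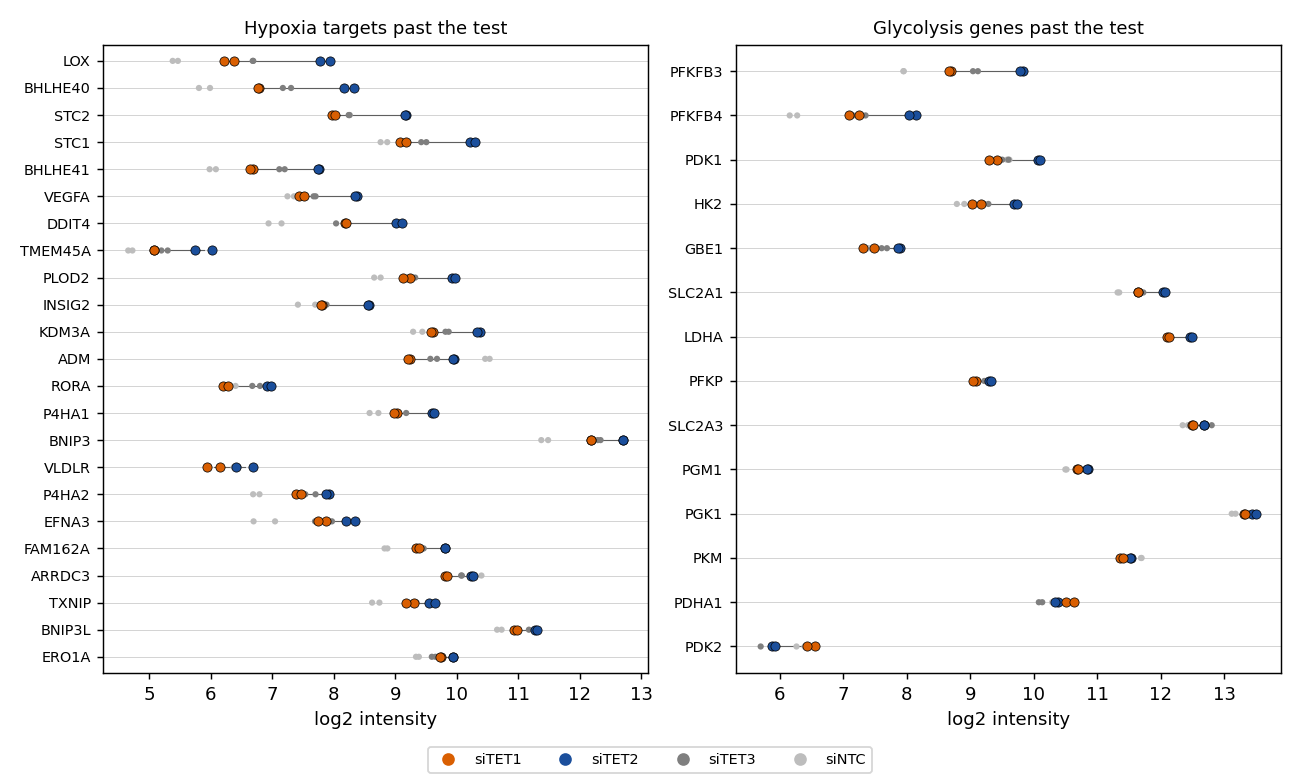
Log2 intensity (x axis) of the 23 hypoxia targets outside glycolysis (left) and the 14 glycolysis genes (right) that were past the test, ordered by their difference, with 2 points per group and a line between the siTET1 and siTET2 means. In LOX the siTET1 arrays lay at 6.23 and 6.38 and the siTET2 arrays at 7.78 and 7.94, and PDK2 and PDHA1 at the bottom right ran the other way.

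Immediate early genes, which cells switch on within minutes of a growth factor or stress signal and without new protein, held the top 2 differences of the whole contrast. FOS, a subunit of the AP-1 transcription factor, read 6.98 and 6.94 in siTET1 and 8.74 and 8.60 in siTET2 (3.28-fold, 1.71 ± 0.076, adjusted p = 9.75e-08). EGR1, a zinc finger factor, read 8.27 and 8.32 against 9.98 and 9.92 (3.15-fold, 1.66 ± 0.060, adjusted p = 2.31e-08). The siTET3 and siNTC arrays lay between 6.87 and 7.31 for FOS and between 8.61 and 8.91 for EGR1, so that in both genes the siTET2 arrays stood above the 6 others by more than the range of those.

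Of 32 measured immediate early genes 10 were higher in siTET2 and 22 were not past the test (median 0.19). That is 31.25% called, against 6.46% of all genes. The other AP-1 subunits were FOSB (1.79-fold, 0.84 ± 0.10, adjusted p = 0.000451), FOSL2 (1.72-fold, 0.79 ± 0.11, adjusted p = 0.00129) and JUN (1.67-fold, 0.74 ± 0.097, adjusted p = 0.000847). DUSP1, a phosphatase that ends MAP kinase signals, read 8.24 and 8.38 against 8.87 and 8.85 (0.56 ± 0.062, adjusted p = 0.000244). KLF10 (0.47), IER2 (0.38), PPP1R15A (0.36) and CCN2 (0.29) completed the 10. The growth regulator MYC differed by 0.07 ± 0.055 (adjusted p = 0.612) and the stress factor ATF3 by 0.05 ± 0.11 (adjusted p = 0.903).

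The stretch before EGR1 is shown for its serum response elements, the sites through which serum response factor acts on this gene. It covers the 250 bases before the RefSeq start site on the plus strand of chromosome 5 (chr5:138465229-138465478, GRCh38.p14), with the letters that match the CArG box in capitals.
EGR1: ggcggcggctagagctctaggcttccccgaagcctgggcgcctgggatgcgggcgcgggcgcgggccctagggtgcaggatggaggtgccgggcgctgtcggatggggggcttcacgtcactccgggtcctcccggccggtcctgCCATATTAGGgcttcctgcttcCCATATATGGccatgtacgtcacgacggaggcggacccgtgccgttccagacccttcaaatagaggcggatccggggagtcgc

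The window of EGR1 held 2 CArG boxes, at positions -105 and -83, and no other of the 9 immediate early genes past the test with a RefSeq window held one. Over all RefSeq promoters given, the share with a CArG box was 1.29%. The motif was chosen after the values had been seen, and a site farther upstream would fall outside the window.

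The feedback genes of fibroblast growth factor (FGF) and ERK signalling were examined beside them. Of 27 measured genes 9 were higher, 2 were lower and 16 were not past the test (median 0.04). That is 40.7% called, against 6.46% of all genes. The higher genes included inhibitors of the pathway: SPRY1 (6.47 and 6.60 in siTET1, 7.19 and 7.15 in siTET2, 0.64 ± 0.093, adjusted p = 0.00185), the ERK phosphatase DUSP6 (5.91 and 5.78 against 6.31 and 6.39, 0.51 ± 0.089, adjusted p = 0.00549), SPRY4 (0.35 ± 0.048, adjusted p = 0.00106) and IL17RD (0.30 ± 0.052, adjusted p = 0.00520). The ligand FGF19 was 1.33-fold higher (0.41 ± 0.10, adjusted p = 0.0373). Among the receptors FGFR4 (-0.48 ± 0.086, adjusted p = 0.00613) and FGFR2 (-0.33 ± 0.051, adjusted p = 0.00239) were lower in siTET2. DUSP6 stood far higher on the siNTC arrays, at 8.14 and 8.16, than on any array of a depletion. Without siTET1 replicate 1, siTET1 replicate 2, siTET2 replicate 1 or siTET2 replicate 2 the genes of this list past the test numbered 6, 3, 4 and 5.

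**Figure D4:**
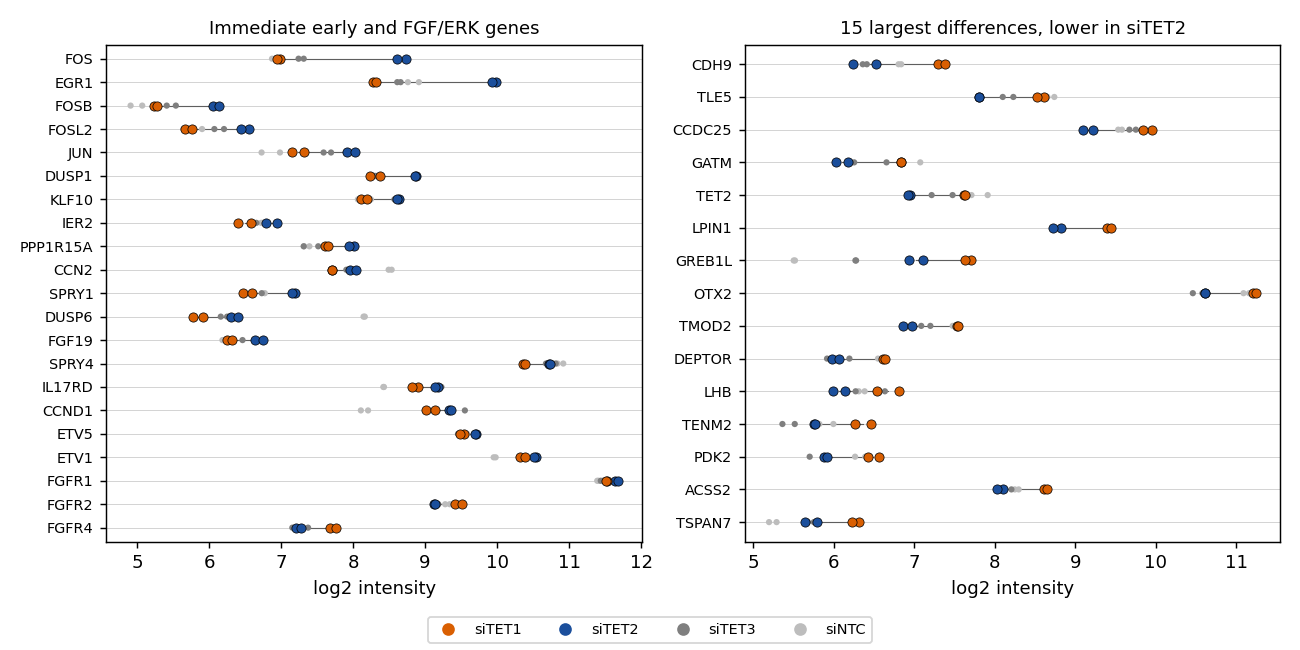
Log2 intensity (x axis) on the 8 arrays of the immediate early and FGF/ERK genes past the test (left) and of the 15 genes with the largest differences towards lower values in siTET2 that were above background in both groups (right), with 2 points per group. FOS and EGR1 had siTET2 arrays at 8.60 to 8.74 and 9.92 to 9.98, above all other arrays, and DUSP6 had siNTC arrays at 8.14 and 8.16.

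Small non-coding RNAs of the nucleolus and the spliceosome were more often higher than lower in siTET2. H/ACA RNAs guide pseudouridylation and C/D RNAs guide 2′-O-methylation of ribosomal and small nuclear RNA, and most are cut from the introns of host genes. Of 77 H/ACA and Cajal body RNAs 25 were higher by limma, 0 were lower and 52 were not past the test (median 0.17); at an unadjusted p under 0.05 these were 41 higher and 0 lower. Of 115 C/D RNAs 36 were higher, 1 was lower (SNORD1A, -0.32 ± 0.082, adjusted p = 0.0339) and 78 were not past the test (median 0.16). Positive differences were held by 66 of the 77 and 95 of the 115. The shares called were 32.5% and 32.2%, against 6.46% of all genes. Both counts were smaller with any 1 of the siTET1 and siTET2 arrays left out, where 1 array remained in a group and the test had less power.

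Single members showed larger differences. SNORA3A read 11.92 and 11.92 in siTET1 and 12.67 and 12.64 in siTET2 (1.67-fold, 0.74 ± 0.031, adjusted p = 6.31e-08), above the siTET3 arrays at 12.12 and 12.14 and the siNTC arrays at 11.61 and 11.60. SNORA80E was 1.86-fold higher than in siTET1 (0.89 ± 0.090, adjusted p = 0.000112), with siNTC higher still at 9.36 and 9.08 against 8.64 and 8.74 in siTET2. SNORD117 read 7.46 and 7.36 against 7.93 and 7.99 (0.55 ± 0.097, adjusted p = 0.00549). Many of these RNAs have near-identical copies whose probes cannot be told apart, so a value may belong to a family and not to a single gene.

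Spliceosomal and polymerase III transcripts were examined beside them. Of 20 annotated small nuclear RNAs 7 were higher and 0 lower by limma (13 and 0 at an unadjusted p under 0.05), among them RNU6ATAC, a component of the minor spliceosome, at 7.04 and 7.07 against 7.63 and 7.71 (1.53-fold, 0.61 ± 0.091, adjusted p = 0.00192), and RNU11 (0.29 ± 0.051, adjusted p = 0.00570). Of 8 vault particle and small polymerase III genes 3 were higher and 0 lower by limma (5 and 1 at an unadjusted p under 0.05), with a median of 0.15. That is 37.5% called, against 6.46% of all genes. VTRNA1-1, a vault RNA made by polymerase III, read 10.89 and 11.03 in siTET1 and 12.04 and 11.97 in siTET2 (2.06-fold, 1.04 ± 0.085, adjusted p = 1.72e-05), while its siNTC arrays lay at 9.34 and 9.02. VTRNA1-2 (0.11 ± 0.049, adjusted p = 0.245) and VTRNA1-3 (0.21 ± 0.088, adjusted p = 0.212) were not past the test. The Y RNA gene RNY1 had the lowest difference of the list (-0.74 ± 0.23, adjusted p = 0.0754) and was not past the test either. RPPH1 and RMRP, the RNA subunits of RNases P and MRP, were higher by 0.40 ± 0.072 (adjusted p = 0.00664) and 0.18 ± 0.036 (adjusted p = 0.00946). Among 58 cytosolic ribosomal proteins, whose genes host many of these RNAs, 2 were higher and 0 lower by limma (8 and 0 at an unadjusted p under 0.05), with a median of 0.02. Their share called, 3.45%, lay below the 6.46% of all genes.

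Of 7 measured metallothioneins, small proteins that bind zinc and copper, 6 were higher in siTET2 and MT1H (0.18 ± 0.12, adjusted p = 0.522) was not past the test. MT2A read 10.93 and 11.03 in siTET1 and 11.49 and 11.50 in siTET2 (1.43-fold, 0.51 ± 0.052, adjusted p = 0.000112), and MT1G read 9.21 and 9.13 against 9.61 and 9.73 (1.41-fold, 0.49 ± 0.056, adjusted p = 0.000279). MT1X (0.46), MT1M (0.44), MT1E (0.41) and MT1F (0.41) were also past the test. In 5 of these 6 the siNTC arrays lay above siTET2, at 11.72 and 11.76 for MT2A, 9.90 and 9.96 for MT1G and 12.54 and 12.57 for MT1F, and in MT1X (10.38 and 10.40) they lay between siTET1 and siTET2. The copies of this family on chromosome 16 are close in sequence and their values may not be independent. The list of iron handling genes and metallothioneins held 18 measured genes, of which 8 were higher and 1 was lower (median 0.19). The iron carrier receptor TFRC (0.23 ± 0.030, adjusted p = 0.000809) and the ferritin light chain FTL (0.28 ± 0.069, adjusted p = 0.0308) were higher, and ACO1, whose protein controls both transcripts when iron is low, was lower (-0.28 ± 0.041, adjusted p = 0.00177). MTF1, the zinc sensor that drives metallothionein genes, differed by 0.02 ± 0.049 (adjusted p = 0.931).

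The genes lower in siTET2 had smaller differences. CDH9, a classical cadherin of neurons, read 7.29 and 7.38 in siTET1 and 6.53 and 6.24 in siTET2, or 51.8% of the siTET1 level (-0.95 ± 0.10, adjusted p = 0.000170). TLE5, a short member of the Groucho corepressor family, read 8.61 and 8.52 against 7.81 and 7.80 (59.0%, -0.76 ± 0.066, adjusted p = 2.84e-05). CCDC25, a membrane protein that senses extracellular DNA, read 9.96 and 9.84 against 9.09 and 9.22 (59.7%, -0.74 ± 0.058, adjusted p = 1.27e-05). In TLE5 and CCDC25 the siTET2 arrays were the lowest of all 8, whereas for CDH9 the siTET3 arrays, at 6.41 and 6.36, lay with siTET2.

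Metabolic and developmental genes followed. GATM, the first enzyme of creatine synthesis, was at 60.1% of its siTET1 level (-0.73 ± 0.13, adjusted p = 0.00535), and LPIN1, a phosphatidate phosphatase of lipid synthesis, at 64.0% (-0.64 ± 0.052, adjusted p = 1.57e-05). For LPIN1 the siNTC arrays, at 8.82 and 8.81, lay with siTET2 at 8.82 and 8.73. Its siTET3 arrays, at 9.43 and 9.45, lay with siTET1 at 9.39 and 9.44. The homeobox factor OTX2, which marks the primed epiblast and the anterior neural plate, read 11.20 and 11.25 in siTET1 and 10.61 and 10.61 in siTET2 (65.2%, -0.62 ± 0.045, adjusted p = 7.22e-06), with siNTC at 11.09 and 11.16 and siTET3 at 10.46 and 10.58. GREB1L, a gene of kidney and inner ear development, was lower than in siTET1 (64.1%, -0.64 ± 0.090, adjusted p = 0.00129), yet its siNTC arrays at 5.52 and 5.50 lay below the siTET2 arrays at 6.94 and 7.11. DEPTOR, an inhibitor of the mTOR kinase, was at 65.7% (-0.61 ± 0.10, adjusted p = 0.00497), opposite in direction to the mTORC1 inhibitor DDIT4. LYVE1, a hyaluronan receptor, was not above background in siTET2 and was at least 1.41-fold lower there (adjusted p = 0.0105).

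Some sterol and cell cycle genes were lower by small amounts. Of 26 genes of cholesterol synthesis and uptake 8 were lower, 0 were higher by limma and 18 were not past the test (median -0.12), and at an unadjusted p under 0.05 14 were lower and 1 was higher. They included TM7SF2 (-0.48 ± 0.087, adjusted p = 0.00641), FASN, the fatty acid synthase (10.78 and 10.84 against 10.43 and 10.44, -0.37 ± 0.038, adjusted p = 0.000131), FDPS (-0.36 ± 0.049, adjusted p = 0.00116) and HMGCS1 (-0.21 ± 0.033, adjusted p = 0.00292). Of 57 genes of the cell cycle and DNA replication 13 were lower and 2 higher (median -0.09), and the differences of the lower genes ran from -0.29 in the mitotic kinase AURKB (adjusted p = 0.000638) to -0.16 in CCNA2. The share called was 30.8% in the sterol list and 26.3% in the cell cycle list, against 6.46% of all genes. Most members of both lists were well above background, and in the most highly expressed group 596 of 6139 genes were lower and 285 higher. Whether the 2 lists differ from other highly expressed genes was not tested. The 2 cell cycle genes that were higher were D-type cyclins, CCND2 (9.66 and 9.71 against 10.10 and 10.16, 0.45 ± 0.054, adjusted p = 0.000469) and CCND1 (0.27 ± 0.071, adjusted p = 0.0380). They differed in siNTC, where CCND2 read 10.67 and 10.50, above siTET2. CCND1 read 8.21 and 8.11 there, below siTET1 at 9.01 and 9.14. Without siTET1 replicate 1, siTET1 replicate 2, siTET2 replicate 1 or siTET2 replicate 2 the sterol genes past the test numbered 3, 5, 3 and 5, and the cell cycle genes 4, 5, 3 and 6.

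Of 189 measured microRNA genes 1 was higher, 2 were lower and 186 were not past the test, or 1.59% called against 6.46% of all genes. The microRNA genes were mostly dim, with 59 above background, and few dim genes of any kind were past the test (16 higher and 6 lower of 6139 in the dimmest group). The 2 that were lower, MIR302A and MIR302B, belong to the cluster that pluripotent cells express most, on the minus strand of chromosome 4 within the span of LARP7 and of the lncRNA MIR302CHG. The 1 that was higher, MIR221, lies on the minus strand of chromosome X within MIR222HG, beside MIR222. The mature 3p sequences (RefSeq, GRCh38.p14) are given at chr4:112648186-112648208 for miR-302a, chr4:112648489-112648511 for miR-302b, chrX:45746180-45746202 for miR-221 and chrX:45747036-45747056 for miR-222, with the seed (bases 2 to 8) in capitals, to show that each pair shares its seed.
hsa-miR-302a-3p: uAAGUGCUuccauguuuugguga
hsa-miR-302b-3p: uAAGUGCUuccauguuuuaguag
hsa-miR-221-3p: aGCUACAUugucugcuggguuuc
hsa-miR-222-3p: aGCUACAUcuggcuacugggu

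MIR302A read 10.40 and 10.77 in siTET1 and 10.15 and 9.95 in siTET2 (-0.53 ± 0.12, adjusted p = 0.0198), and MIR302B read 11.22 and 11.32 against 10.82 and 10.90 (-0.41 ± 0.060, adjusted p = 0.00185). MIR221 read 6.07 and 6.15 in siTET1 and 6.48 and 6.61 in siTET2 (0.44 ± 0.10, adjusted p = 0.0277), whereas MIR222, with the same seed, was not above background in either group (4.21 and 3.98 against 4.36 and 4.32) and was not past the test (adjusted p = 0.140). In MIR302A, MIR302B and MIR221 the arrays of the groups did not overlap. With 1 of the 4 arrays left out, the adjusted p ran from 0.0161 to 0.204 for MIR302A and from 0.114 to 0.234 for MIR221, and MIR302B was past the test each time. The array clusters read the transcript of the microRNA gene, and the level of the mature microRNA was not measured.

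Genes of cell identity were examined by lineage. Of 25 pluripotency factors 1 was lower (LIN28A, which blocks the maturation of let-7 microRNAs, -0.22 ± 0.042, adjusted p = 0.00810) and 24 were not past the test, or 4.00% called against 6.46% of all genes. SOX2 differed by -0.05 ± 0.028 (adjusted p = 0.413), DPPA4 by -0.01 ± 0.035 (adjusted p = 0.949) and SALL4 by -0.04 ± 0.040 (adjusted p = 0.753). In neuroectoderm, where 16.7% were called, 1 of 24 genes was higher (HES1, a Notch target, 0.50 ± 0.076, adjusted p = 0.00239) and 3 were lower: OTX2, MAP2 (-0.37 ± 0.068, adjusted p = 0.00725) and NES (-0.30 ± 0.081, adjusted p = 0.0466). Of 20 mesendoderm genes 1 was past the test, CXCR4, and of 19 trophectoderm genes 2, namely TFAP2A (-0.22) and CGA, which was not above background in any group. Of 6 fibroblast and stroma markers 0 were past the limma test, and 1, THY1, had an unadjusted p under 0.05.

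DNA methylation and repair genes were also examined, as the pathway in which the TETs act. Of 20 genes of the TET and base excision repair list TET1 and CXXC5, a CXXC protein known to interact with TET2, were higher (CXXC5 0.29 ± 0.069, adjusted p = 0.0254), and TET2, the uracil glycosylase SMUG1 (8.28 and 8.26 against 7.88 and 7.75, -0.45 ± 0.088, adjusted p = 0.0102), APEX1 and PARP1 (both -0.15) were lower. Of 23 DNA methyltransferases and cofactors 2 were lower, HELLS (-0.18 ± 0.044, adjusted p = 0.0294) and DPPA3 (-0.12 ± 0.032, adjusted p = 0.0449), a share of 8.70% that is close to the 6.46% of all genes, and neither was past the test with any 1 of the 4 arrays left out. DNMT1, DNMT3A and DNMT3B were not past the test. DPPA3 stood much lower on the siNTC arrays (11.27 and 11.22) than in siTET1 (12.98 and 12.92) or siTET2 (12.82 and 12.83).

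Interferon genes, which can respond to double-stranded RNA, and the machinery that uses siRNA were examined because every group had been transfected with siRNA. Of 37 interferon and double-stranded RNA response genes 15 lay above background and 2 were higher in siTET2, IFITM3 (9.27 and 9.37 against 9.91 and 9.91, 0.59 ± 0.058, adjusted p = 8.59e-05) and IFITM1 (0.24 ± 0.028, adjusted p = 0.000409), both membrane proteins that block viral entry. The share called was 5.41%, close to the 6.46% of all genes. On the siNTC arrays IFITM3 read 10.10 and 10.00, above siTET2. IFITM1 read 11.78 and 11.80 there, below siTET1 at 12.93 and 12.96. The sensor kinase EIF2AK2 differed by 0.06 ± 0.039 (adjusted p = 0.506), and IFIT1 was not above background in either group. Of 16 genes of RNA interference AGO3 (0.18), TNRC6A (0.14) and TNRC6B (0.19) were higher and LIN28A was lower. Their part in the other differences was not tested.

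**Figure D5:**
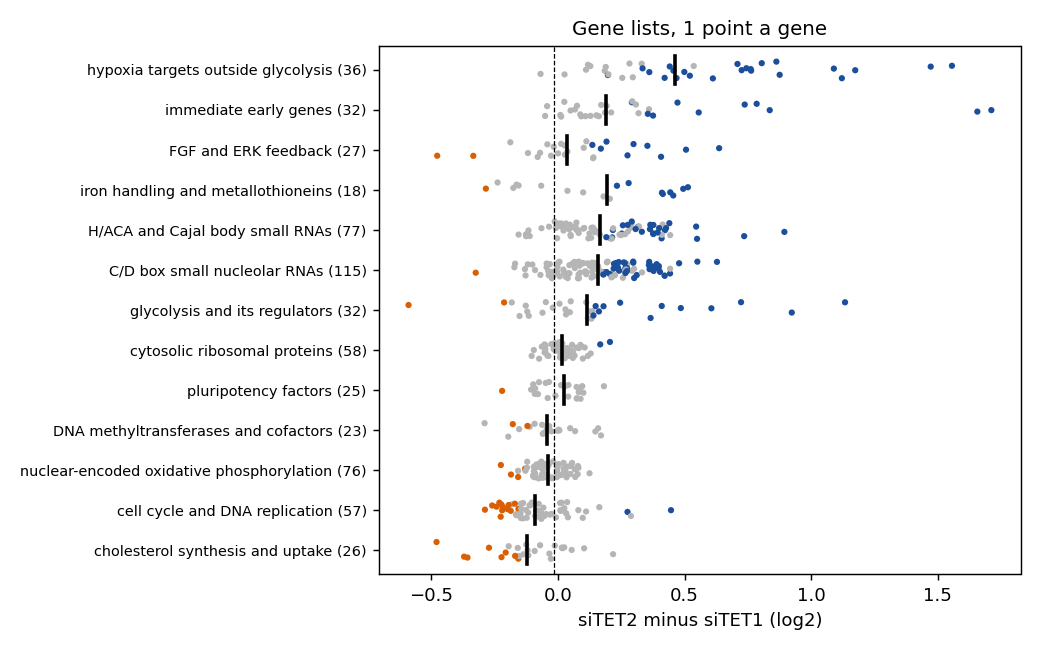
Difference between siTET2 and siTET1 (x axis, log2) of every measured member of 13 gene lists, with the number measured in parentheses, in blue where higher and in orange where lower past the test and in grey otherwise; the black bar is the median of a list and the dashed line the median of all genes (-0.016). The hypoxia targets had a median of 0.46, the small nucleolar RNA lists of 0.17 and 0.16, and the cell cycle and cholesterol lists of -0.09 and -0.12.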

How the data were processed

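Gene expression was measured on Affymetrix Human Gene 1.0 ST arrays, with 2 arrays for each of 4 groups. The deposited values are log2 intensities that the authors normalized between arrays with Partek, per the submitters' processing notes, and the sources used here state neither its version nor how background was corrected and probes were summarized. Groups came from the sample titles. Genes were named through the array annotation, with symbols updated through Entrez identifiers for 19429 clusters, and 1754 clusters with several symbols and 12083 with none were left out. All 8 arrays entered 1 linear model with a mean per group (limma 3.58.1, R 4.3.3), whose variances were moderated with a trend on intensity (residual degrees of freedom 4, prior 8.55), and siTET2 was contrasted with siTET1. Tests were two-sided, adjusted by Benjamini-Hochberg over 18417 genes, with a threshold of 0.05. Errors are standard errors on the log2 scale, and medians of lists are given with no test.

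The groups, gene lists and genes described were chosen with earlier results of these data known. Named genes were the TETs and genes assayed in the study, the 15 largest differences each way with arrays that did not overlap, and up to 6 members of each list. Others named were chosen after their values had been seen. A gene not above background on any array of a group is given as a bound, computed after raising the dimmer group's arrays to background where they lay under it. The fit was tested on simulated data. Replicate numbers did not pair the arrays. The alternatives were quantile normalization, a filter on dim genes, no trend, the 4 arrays alone, all clusters, the mean of a gene's clusters, a replicate block, centring, each array left out and, chosen after seeing the data, both siNTC arrays left out. Sequences are from RefSeq (GRCh38.p14), matched by symbol. Plots used matplotlib 3.10.9 (Python 3.11.15).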

Additional observations from a re-analysis of the deposited data

How the results depend on the processing

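The number of genes past the test, 1189 as reported, was 2370 in a fit of the 4 siTET1 and siTET2 arrays alone, 223 without an intensity trend (221 of these were also among the 1189), and 461 when all 33297 clusters were fitted. Stricter thresholds left 412 genes at an adjusted p under 0.01 and 67 with at least a 1.5-fold difference. With each array left out in turn the count ran from 248 to 1615. Quantile normalization gave 1338, a filter on dim genes 1500, averaging the clusters of each gene 1185 and centring 1068. With both siNTC arrays left out, an alternative chosen after seeing the data, it was 1282. No gene past the test both in the values as deposited and under an alternative fitted by gene changed its direction. TET1 and TET2 were past the test under every alternative fitted for them, and TET3 (0.36) was past it only with the 4 arrays alone. The replicate block gave 1219 genes, and same-numbered siTET1 and siTET2 arrays did not deviate together (r = -0.030 over genes), so the numbers were not taken as pairs. Among the other pairs of groups r was 0.238 for siTET1 with siTET3 and between -0.043 and 0.028 otherwise. Small differences in dim genes are at the limit of 2 arrays per group. Of the 125 named genes past the test, 54 missed it in at least 1 of the 4 fits that left out a siTET1 or siTET2 array, with adjusted p up to 0.351. It was missed in all 4 fits by AGO3, APEX1, CCN2, CCNA2, CCND1, CGA, CXXC5, DPPA3, FGF19, FTL, HELLS, HSPA5, IER2, JMJD4, KDM6A, KDM6B, MIR221, MT1M, NES, OR5P3, PARP1, PDIA4, PGK1, PPP1R15A, RING1, SGCE, SMUG1, SNORD1A, TNRC6A and TNRC6B, and in 1 to 3 of them by H4C4, HSP90AA1, LYVE1, MAP2, MIR302A, P4HA2, PDHA1, PDK2, RMRP, RPPH1, SNORD117, DEPTOR, DUSP6, FGFR4, GATM, IL17RD, LIN28A, RIOX2, RNU11, TM7SF2, VLDLR, HMGCS1, OVCH2 and RBBP4.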

Other observations

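The gene with the sixth largest difference was an olfactory receptor, and its neighbours were therefore read in genome order. On chromosome 11 the consecutive genes OVCH2, OR5P1P, OR5P2 and OR5P3 were all higher in siTET2. The differences were 0.72 ± 0.11 for OVCH2 (adjusted p = 0.00278), 1.35 ± 0.11 for OR5P2 (adjusted p = 1.57e-05) and 0.50 ± 0.12 for OR5P3 (adjusted p = 0.0323), and OR5P1P, which was not above background in siTET1, was at least 1.52-fold higher (adjusted p = 0.00128). OR5P2 read 5.34 and 5.59 in siTET1 and 6.76 and 6.86 in siTET2. OR5P3 read 5.44 and 5.18 in siTET1, the latter not above background, and its difference is given as fitted. The genes on either side, CYB5R2 (-0.10 ± 0.052, adjusted p = 0.328) and OR5E1P (-0.13 ± 0.11, adjusted p = 0.636), were not past the test. This stretch was chosen after its values had been seen, and the receptors of this family are close in sequence.

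Windows of 25 genes were read in genome order, leaving out genes not above background on average. The imprinted stretch of chromosome 15 that holds the SNORD116 and SNORD115 repeats had the highest median of any window. It was 0.16 for the window from NDN to SNORD115-37, with 8 genes higher and 0 lower by limma, and the same for some windows that overlap it. SNORD116-24 read 12.50 and 12.56 in siTET1 and 12.90 and 12.89 in siTET2 (0.36 ± 0.030, adjusted p = 2.15e-05). SNORD115-44, too dim on average to enter any window, was not above background in siTET1 and at least 1.29-fold higher in siTET2 (adjusted p = 0.00239). The repeats are near-identical, so their clusters are not independent measurements. The lowest median, -0.16, was that of the window from MAP9 to CLCN3 on chromosome 4, with 0 genes higher and 4 lower, and of a window that overlaps it. Of 28 imprinted genes outside these repeats 1 was past the test, SGCE, at -0.27 ± 0.051 (adjusted p = 0.00769). That share, 3.57%, was under the 6.46% of all genes.

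Replication-dependent histone genes were mixed, with 3 of 57 higher and 5 lower. H2BC11 read 9.36 and 9.37 in siTET1 and 8.86 and 8.93 in siTET2 (-0.47 ± 0.051, adjusted p = 0.000209), whereas H4C4 was higher (0.23 ± 0.052, adjusted p = 0.0201). Of 40 polycomb and trithorax genes 7 were higher and 2, RING1 (-0.34) and RBBP4 (-0.26), were lower (22.5% called). Of 42 ATF4 targets 7 were higher and 2 lower (21.4% called), and 4 of the higher genes, STC2, VEGFA, DDIT4 and VLDLR, also stand among the hypoxia targets. Of 76 nuclear genes of oxidative phosphorylation 4 were lower and 0 higher by limma, 10 and 2 at an unadjusted p under 0.05, with a median of -0.041. The share called, 5.26%, was close to the 6.46% of all genes. Among transcript clusters that the annotation gives no symbol, 116 of 12083 were past the test when all 33297 clusters were fitted together, 80 of them higher in siTET2.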
